A study of Mus musculus with 12 samples.

Results

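The genes described here are 34 genes of glucose breakdown and of the response to low oxygen. They were taken by symbol from a list of pathway genes that uses no measured value, but the list was drawn up with earlier results of these data known. All 34 were among the 24421 genes of the count table. Testing required an average level of 1 RPKM (counts scaled to gene length and library size) across the 12 libraries, which 32 of the 34 and 11378 genes in all reached. Aldoc, an aldolase best known from brain, and Pdk2, a pyruvate dehydrogenase kinase, had means of 0.878 and 0.667 RPKM and were not tested. By role the list held 4 genes of glucose uptake and its phosphorylation, 7 of upper glycolysis, 2 of fructose 2,6-bisphosphate control, 7 of lower glycolysis, 4 of lactate handling, 5 of pyruvate dehydrogenase and its kinases, and 5 of the hypoxia response.

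Glycolysis converts glucose to pyruvate in the cytosol. Pyruvate is then either reduced to lactate and exported, or taken into mitochondria and turned into acetyl-CoA by the pyruvate dehydrogenase complex, which pyruvate dehydrogenase kinases switch off. When oxygen is low, the transcription factor HIF-1 accumulates and induces many of these genes, while the prolyl hydroxylases of the Egln family mark its alpha subunit for destruction when oxygen is present. Mouse embryonic stem (mES) cells are known for a high rate of glycolysis even in ordinary air.

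RNA-seq was performed on mES cells of strain B6 (C57BL/6J in the methods) grown in 2i+LIF medium. In every library, 0 nM included, the cells carried an FKBP12-F36V degron knocked in at Brg1 (Smarca4), which encodes the ATPase subunit BRG1 of the mSWI/SNF chromatin remodelling complex. The compound dTAG13, which directs the tagged protein to the proteasome, was given for 24 h at 0.3, 1, 3, 10 or 100 nM, and the 0 nM cells, described as DMSO controls in the study, had no treatment on their labels. Each of the 6 conditions had 2 libraries, 12 in all. The libraries of a condition came from independent experiments. The sample numbers in the labels form 1 run for 0, 1, 10 and 100 nM and another for 0.3 and 3 nM, with numbers that repeat between them, and the labels do not say whether these were separate batches. If they were, dose and batch cannot be told apart for 0.3 and 3 nM against 0 nM. According to the methods the knock-in lines were grown from picked colonies of single cells, but whether all 12 libraries came from 1 clone is not given in the sources used here, and untagged cells given dTAG13 were not analysed here.

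The libraries held between 4663484 and 6375582 counts. Smarca4 RNA, which the degron does not target, lay between 63.5 and 71.3 RPKM in the 12 libraries and was called at no dose. At 100 nM its log2 fold change was 0.16 (edgeR adjusted p = 0.0389), so its RNA gives no check of the protein. The 10 pluripotency markers summed to 2300 to 2330 RPKM at 0 nM and to 2160 to 2190 RPKM at 100 nM, with 1 of 10 called lower. Markers of other cell types were low, and their summed levels were higher at 100 nM than at 0 nM. For 7 trophectoderm markers the sums at 0 and 100 nM were 13.4 to 16.4 and 22.8 to 23.1 RPKM. For 7 germ layer markers they were 10.7 to 11.2 and 18 to 18.3 RPKM. The 6 primitive endoderm markers had 1.19 to 1.34 and 1.98 to 2.72 RPKM, and the 7 fibroblast markers 1.24 to 1.40 and 1.83 to 2.38 RPKM. The mean sums of the trophectoderm and germ layer markers rose at each step of dose. Their lowest libraries, at 13.4 and 10.7 RPKM, were at 0 nM, and their highest, at 23.1 and 18.3 RPKM, at 100 nM. Those of the primitive endoderm and fibroblast markers did not rise steadily with dose. Over the 12 libraries the lowest was 0.721 RPKM for primitive endoderm and 0.479 RPKM for fibroblast markers, below both 0 nM libraries. At 100 nM, 2 of 4 tested trophectoderm and 1 of 3 tested germ layer markers were called higher and 0 lower. Over all genes 4.37% were called higher and 6.83% lower. The primitive endoderm and fibroblast markers were all too low to be tested, and no marker was at 0 in all libraries. Their part in the results on the glycolytic genes was not tested, and in bulk RNA fewer cells of a type and less RNA per cell cannot be told apart.

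Promoter sequences are shown for 6 members that carry the results below. Pfkp had the largest fall at 100 nM, and Bnip3 was the member called higher. Ldha and Ldhb encode the subunits of the same enzyme, and of them Ldhb alone was called. Pdha1 and Pdhb encode the paired subunits of pyruvate dehydrogenase. The windows run from 250 bases before to 50 bases after the RefSeq start nearest to the listed start of the gene (build GRCm38.p6), 5′ to 3′ on the strand of the gene. Capitals mark ACGTG on either strand (ACGTG or CACGT), a form of the core of the hypoxia response element bound by HIF-1. A CACGTG run, the E-box, holds both and counts as 2 overlapping matches.
Pfkp, chr13:6648722-6649021, minus strand: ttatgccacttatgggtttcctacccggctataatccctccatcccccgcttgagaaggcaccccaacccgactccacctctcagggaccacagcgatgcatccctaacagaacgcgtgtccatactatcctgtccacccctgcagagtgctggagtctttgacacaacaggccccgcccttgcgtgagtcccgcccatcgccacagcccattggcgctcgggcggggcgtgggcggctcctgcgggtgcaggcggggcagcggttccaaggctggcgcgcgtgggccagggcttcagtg
Ldha, chr7:46845554-46845853, plus strand: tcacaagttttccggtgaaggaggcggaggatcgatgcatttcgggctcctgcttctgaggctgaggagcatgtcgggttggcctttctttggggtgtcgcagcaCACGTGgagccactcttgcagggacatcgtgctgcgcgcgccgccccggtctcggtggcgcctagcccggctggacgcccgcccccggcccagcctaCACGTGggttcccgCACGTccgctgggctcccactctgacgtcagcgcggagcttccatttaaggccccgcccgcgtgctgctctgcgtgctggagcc
Ldhb, chr6:142507908-142508207, minus strand: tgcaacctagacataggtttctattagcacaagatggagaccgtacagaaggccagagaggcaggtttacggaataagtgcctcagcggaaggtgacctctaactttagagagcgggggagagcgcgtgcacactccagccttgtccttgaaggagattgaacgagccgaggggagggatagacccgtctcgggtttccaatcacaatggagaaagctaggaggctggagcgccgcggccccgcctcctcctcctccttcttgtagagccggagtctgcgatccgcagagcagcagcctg
Pdha1, chrX:160138381-160138680, minus strand: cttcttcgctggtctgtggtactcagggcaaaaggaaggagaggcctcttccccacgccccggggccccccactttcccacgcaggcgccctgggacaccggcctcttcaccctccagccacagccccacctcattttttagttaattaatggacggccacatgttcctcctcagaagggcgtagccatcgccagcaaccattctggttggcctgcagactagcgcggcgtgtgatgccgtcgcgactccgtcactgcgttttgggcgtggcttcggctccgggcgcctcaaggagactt
Pdhb, chr14:8172943-8173242, minus strand: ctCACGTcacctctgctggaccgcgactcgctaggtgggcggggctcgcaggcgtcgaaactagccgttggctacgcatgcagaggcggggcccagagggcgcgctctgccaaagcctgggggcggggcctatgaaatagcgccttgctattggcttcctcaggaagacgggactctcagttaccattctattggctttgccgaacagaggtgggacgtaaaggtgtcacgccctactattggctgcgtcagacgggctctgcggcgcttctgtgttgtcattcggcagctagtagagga
Bnip3, chr7:138909457-138909756, minus strand: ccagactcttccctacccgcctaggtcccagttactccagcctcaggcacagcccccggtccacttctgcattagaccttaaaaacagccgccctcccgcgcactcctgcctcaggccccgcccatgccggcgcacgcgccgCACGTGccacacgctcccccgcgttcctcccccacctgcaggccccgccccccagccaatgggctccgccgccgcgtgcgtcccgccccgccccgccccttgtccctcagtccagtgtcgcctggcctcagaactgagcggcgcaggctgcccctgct
The Ldha window held 5 such matches, among them 2 E-boxes, while the Ldhb, Pfkp and Pdha1 windows held none. Another form of the core, GCGTG, was not marked or counted, and it occurs on 1 strand or the other in all 6 windows shown. The Bnip3 window held 2 in 1 E-box, and the Pdhb window held 1, at position -248 from the start. Among the 33 members with a promoter entry (Slc2a3 had none), 18 windows held the letters (54.5%), against 27% of the 8423 windows of tested genes. Of the 9 members called at 100 nM, 4 held them. The CCAAT letters (CCAAT or ATTGG) were in 45.5% of member windows and 39.5% of all, and the GC box letters (GGGCGG or CCGCCC) in 69.7% and 67.9%. Median GC content was 64.7% in the member windows and 61.3% in all. These matches describe letters in a window of 300 bases, and no protein binding was measured in the files used. The start in use in these cells was not determined, so a window need not hold the active promoter.

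The members differed widely in level. Averaged over the 12 libraries, Gapdh stood at 1070 RPKM, Pkm at 508, Slc2a3 at 340, Ldha at 287 and Aldoa at 275 RPKM. At the other end, Pfkfb3, Vegfa, Pfkfb4 and Eno2 had means of 1.73, 1.45, 1.08 and 1.02 RPKM. The 9 members called at 100 nM had means between 3.76 RPKM (Bnip3) and 66.4 RPKM (Pdha1), and no member above that level was called, as the plot of change against level shows.

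**Figure D1:**
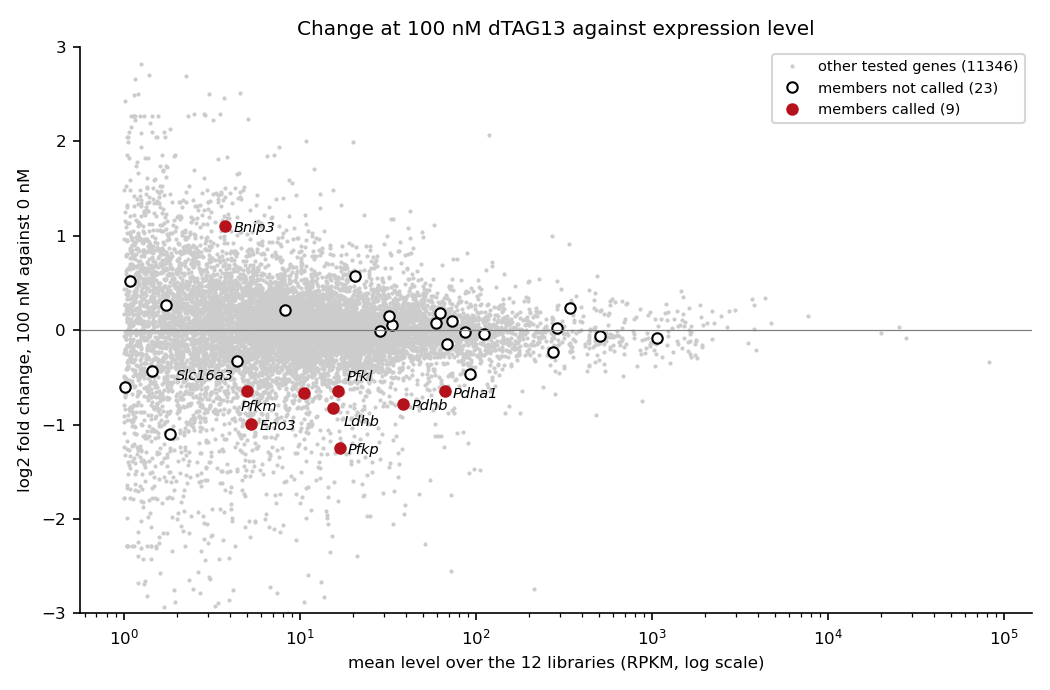
Log2 fold change at 100 nM against 0 nM (vertical) against the mean level over the 12 libraries in RPKM (horizontal, log scale) for all tested genes in grey, with the 23 members not called as open circles and the 9 called as filled red circles. The 8 members called lower lie between -0.64 and -1.25, Bnip3 lies at 1.10, and 66 genes beyond 3 on the log2 scale lie outside the axis.

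The members were then compared with 0 nM at each dose, to ask how their RNA levels followed the loss of BRG1. A gene was called when the edgeR quasi-likelihood test gave a Benjamini-Hochberg adjusted p under 0.05 over all tested genes and the change was over 1.5-fold. The 5 comparisons share the same pair of 0 nM libraries. At 0.3 nM no member of 32 was called in either direction, where 0% of all tested genes were called higher and 0.0176% lower. DESeq2 also called 0 members. At an unadjusted p under 0.05 there were 3 lower members (Pfkp, Ldhb and Slc16a3) and 0 higher. The share of all genes at unadjusted cuts was not counted here or below, so such counts of members have no background. At 1 nM, Ldhb and Slc16a3 were called lower (2 of 32, 6.25%, against 0.729% of all genes) and no member higher (0.185% of all genes), and with any 1 of the 4 libraries left out the call of Ldhb remained and that of Slc16a3 did not. At 3 nM, Pfkp, Eno3 and Ldhb were called lower (3 of 32, 9.38%, against 2.38%) and none higher (1.52% of all genes), and without replicate 1 of 0 nM Ldhb was the 1 member called. Eno3 was not called at 3 nM with DESeq2 or without either library of 0 nM or replicate 2 of 3 nM. At 10 nM, Hk1, Pfkp, Eno3, Ldhb and Slc16a3 were called lower (5 of 32, 15.6%, against 4.92%) and none higher (3.01% of all genes), and without replicate 1 of 10 nM 7 were called lower and 1 higher. Hk1 was not called at 10 nM without replicate 1 of 0 nM or replicate 2 of 10 nM.

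At 100 nM, 8 members of 32 were called lower (25%, against 6.83% of all genes): Pfkl, Pfkp, Pfkm, Eno3, Ldhb, Slc16a3, Pdha1 and Pdhb. Bnip3 was called higher (1 of 32, 3.12%, against 4.37% of all genes). Over all genes 497 were called higher and 777 lower, and with scaling factors from all genes with a count, chosen after seeing the data, 383 and 957, with 1 member higher and 9 lower. By the adjusted p alone, at any fold, 10 members were lower and 3 higher at 100 nM (13.3% and 10.1% of all genes), 12 lower and 3 higher at 10 nM (10.1% and 7.87% of all genes), and 6 lower and 3 higher at 3 nM (5.25% and 4.15% of all genes). The median log2 fold change of the 32 members was -0.01, -0.08, -0.08, -0.13 and -0.07 at 0.3, 1, 3, 10 and 100 nM, against 0 for all tested genes at each dose. The middle of the list thus stayed close to that of all genes, and the lower calls lay in a minority of its members.

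**Figure D2:**
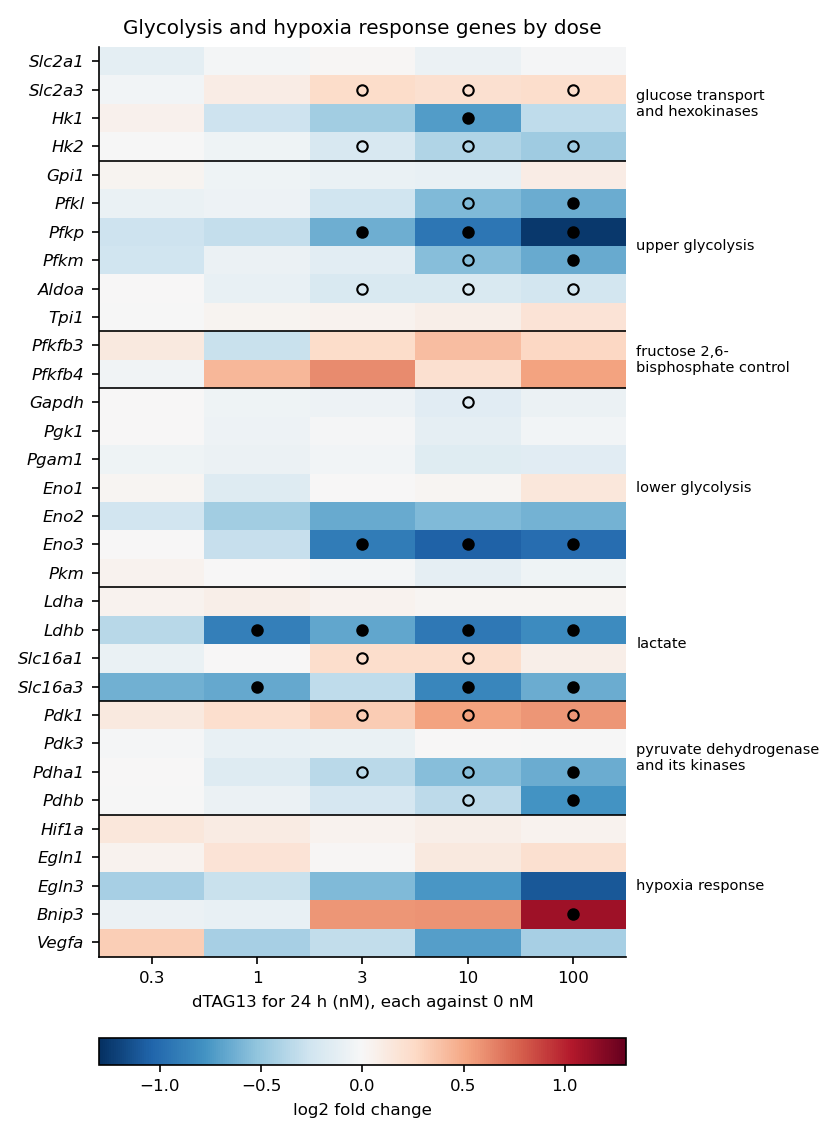
Log2 fold change (colour) of the 32 tested members, in rows grouped by role, at each dTAG13 dose in nM against 0 nM. Filled circles mark members called (edgeR adjusted p under 0.05 and over 1.5-fold) and open circles those past the adjusted p alone; Ldhb and Slc16a3 carry the filled circles at 1 nM, and 9 members do at 100 nM.

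Among the genes of glucose uptake and phosphorylation, the neuronal-type glucose transporter Slc2a3 rose by a small amount and hexokinase 2 fell. Slc2a3 stood at 313 and 310 RPKM at 0 nM and at 359 and 373 RPKM at 100 nM, with both 100 nM libraries above both controls. Its log2 fold change was 0.23 ± 0.050 (SE) at 100 nM (edgeR adjusted p = 0.000949), and 0.24 and 0.21 at 3 and 10 nM. The widely expressed transporter Slc2a1 ranged between 76.9 and 93.8 RPKM over the 12 libraries, with a log2 fold change of -0.02 (95% interval -0.16 to 0.11) at 100 nM.

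Hk2, which traps glucose in the cell as glucose 6-phosphate, made up 94.8% of the summed hexokinase RPKM at 100 nM and 95.2% at 0 nM. At 0, 0.3, 1, 3, 10 and 100 nM its levels were 106 and 102, 104 and 104, 98.6 and 101, 91.0 and 89.9, 83.3 and 76.5, and 80 and 71.4 RPKM. Both libraries at 1, 3, 10 and 100 nM lay below both controls, and the log2 fold change was -0.21 at 3 nM, -0.39 at 10 nM and -0.46 ± 0.059 at 100 nM (edgeR adjusted p = 1.14e-06), short of 1.5-fold. Hk1, the hexokinase of most adult tissues (chr10:62268855-62379908 in mm10, minus strand), was at 5.90 and 4.62, 5.67 and 5.29, 3.96 and 4.73, 4.14 and 3.55, 3.52 and 2.80, and 4.30 and 4.06 RPKM in the same order. It was called at 10 nM (log2 fold change -0.73 ± 0.17, edgeR adjusted p = 0.00273) and not at 100 nM (-0.33 ± 0.16, adjusted p = 0.143), and the change from 10 to 100 nM had an adjusted p of 0.334.

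Phosphofructokinase, which commits sugar to glycolysis, had all 3 of its genes called lower at 100 nM. At 0, 0.3, 1, 3, 10 and 100 nM the platelet-type gene Pfkp stood at 25.2 and 22.5, 20.6 and 19.0, 19.7 and 18.8, 15.5 and 15.3, 14.1 and 10.6, and 9.69 and 10.4 RPKM. Its means fell at each step of dose and both libraries of every dose lay below both controls. Against 0 nM the log2 fold change was -0.27 at 0.3 nM (adjusted p = 0.502), -0.31 at 1 nM (adjusted p = 0.116), -0.63 at 3 nM, -0.94 at 10 nM and -1.25 ± 0.11 at 100 nM (edgeR adjusted p = 1.6e-09), 2.37-fold lower.

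The liver-type gene Pfkl (chr10:77986949-78009796, minus strand) was at 21.8 and 17.6, 18.5 and 18.4, 20.5 and 17, 17.9 and 15.2, 15.2 and 11.3, and 13.4 and 11.8 RPKM in the same order of doses. Its control libraries differed by more than those of Pfkp, and at 10 and 100 nM both libraries lay below both controls. Its log2 fold change was -0.57 ± 0.13 at 10 nM and -0.64 ± 0.13 at 100 nM (edgeR adjusted p = 0.000431). The muscle-type gene Pfkm (chr15:98092589-98132447, plus strand) was at 10.6 and 14.4, 10.3 and 10.6, 12.5 and 11.3, 11.3 and 11.4, 8.67 and 8.49, and 8.47 and 7.39 RPKM, with a log2 fold change of -0.66 ± 0.13 at 100 nM (edgeR adjusted p = 0.000581). Without replicate 2 of 0 nM, its higher control, the adjusted p for Pfkm at 100 nM was 0.058. Without replicate 2 of 100 nM neither Pfkl (-0.56) nor Pfkm (-0.57) reached 1.5-fold, and without replicate 1 of 0 nM Pfkl (-0.48) did not, with the adjusted p under 0.05 in each case.

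Summed over the genes of phosphofructokinase, the level was 57.6 and 54.5 RPKM without dTAG13. The 3 nM libraries had 44.7 and 41.8 RPKM, the 10 nM libraries 37.9 and 30.5 RPKM, and the 100 nM libraries 31.5 and 29.6 RPKM, which is 54.5% of the 0 nM mean. The share of Pfkp in this sum was 43.7% and 41.3% at 0 nM and 30.7% and 35.1% at 100 nM, while that of Pfkl was 37.8% and 32.3% and then 42.4% and 39.9%. Pfkp thus led the sum without dTAG13 and Pfkl led it at 100 nM, and whether the genes differ in their change was not tested. Exons of Pfkp overlap those of its neighbour Pitrm1, which shares 17.1% of the 50-base windows of the longest Pfkp transcript and had a log2 fold change of 0.074 at 100 nM.

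**Figure D3:**
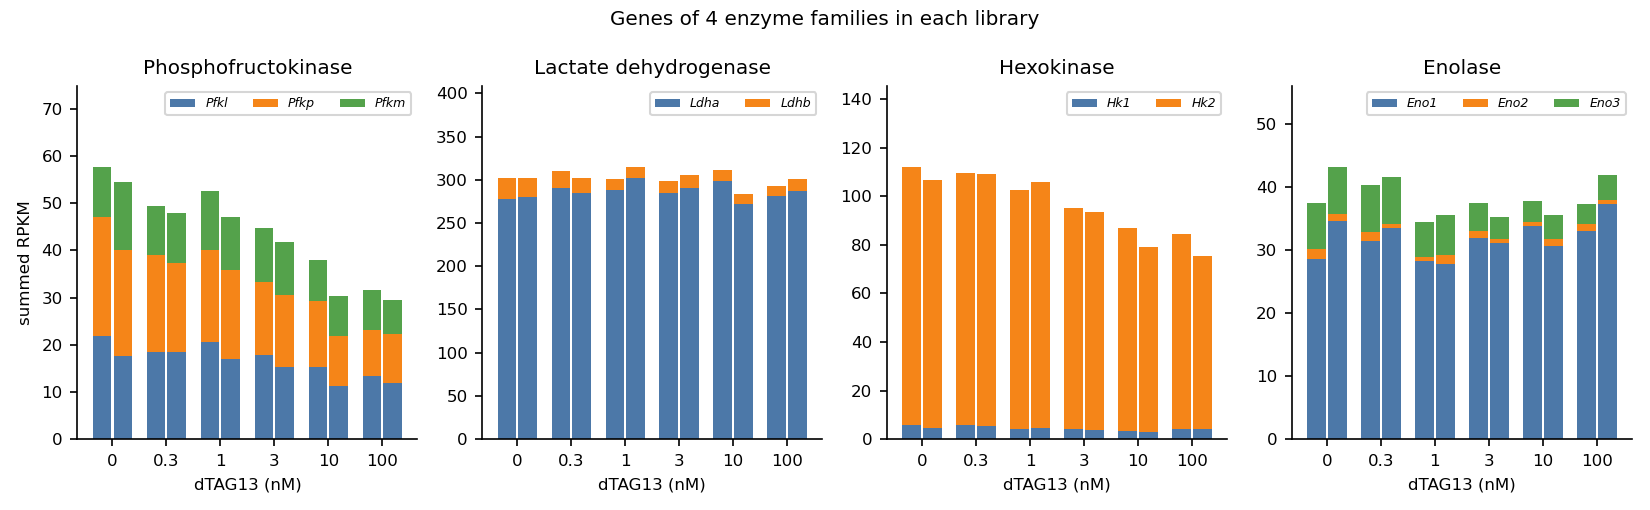
Level in RPKM (vertical, from 0) of the genes of 4 enzyme families, stacked, in each of the 2 libraries of every dTAG13 dose in nM (horizontal). The 2 bars of a dose are replicates 1 and 2, and the phosphofructokinase sum drops from 57.6 and 54.5 to 31.5 and 29.6 RPKM, whereas the lactate dehydrogenase sum stays between 283 and 314 RPKM.

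The remaining genes of upper glycolysis changed less. Aldoa, the main aldolase, splits fructose 1,6-bisphosphate and went from 297 and 300 RPKM at 0 nM to 256 and 251 RPKM at 100 nM. That is a log2 fold change of -0.24 ± 0.052 (edgeR adjusted p = 0.0013), and it was past the adjusted p at 3 and 10 nM as well (-0.20 at both). With library totals as the scaling the adjusted p for Aldoa at 100 nM was 0.0967. Gpi1, glucose 6-phosphate isomerase, and Tpi1, triose phosphate isomerase, had log2 fold changes of 0.10 (-0.03 to 0.23) and 0.18 (-0.03 to 0.39) at 100 nM. Pfkfb3 and Pfkfb4 make fructose 2,6-bisphosphate, the main activator of phosphofructokinase, and their log2 fold changes of 0.27 and 0.52 at 100 nM had wide intervals (-0.20 to 0.73 and -0.27 to 1.31) at levels near the limit for testing.

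In lower glycolysis the abundant genes stayed near their control levels, and the call fell on the muscle-type enolase Eno3 (chr11:70657176-70662513, plus strand). Enolase forms phosphoenolpyruvate. At 0, 0.3, 1, 3, 10 and 100 nM, Eno3 stood at 7.28 and 7.41, 7.48 and 7.33, 5.56 and 6.33, 4.43 and 3.44, 3.30 and 3.77, and 3.30 and 4.08 RPKM. The libraries at 3, 10 and 100 nM overlapped with each other and lay below all libraries of the lower doses. Eno3 had a log2 fold change of -0.30 at 1 nM (adjusted p = 0.59), -0.91 ± 0.23 at 3 nM (edgeR adjusted p = 0.0119), -1.05 at 10 nM and -0.99 ± 0.23 at 100 nM (edgeR adjusted p = 0.00191).

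The widely expressed enolase Eno1 was at 28.6 and 34.7, 31.4 and 33.5, 28.3 and 27.9, 32.0 and 31.2, 33.8 and 30.7, and 33.0 and 37.3 RPKM over the same doses, with a log2 fold change of 0.15 (-0.06 to 0.36) at 100 nM. The near-identical copy Eno1b had 10.6 to 16.5 RPKM of its own, and 72.2% of the 50-base windows of Eno1 occur in transcripts of other genes, so its level is uncertain. The neuronal enolase Eno2 was at 1.66 and 1.05, 1.51 and 0.753, 0.662 and 1.31, 1.09 and 0.636, 0.709 and 1.11, and 1.12 and 0.643 RPKM, and its libraries overlapped at all doses. The share of Eno3 in the enolase sum was 19.4% and 17.2% at 0 nM and 8.82% and 9.71% at 100 nM.

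Gapdh, Pgk1, Pgam1 and Pkm, which run the steps from glyceraldehyde 3-phosphate to pyruvate, had log2 fold changes of -0.08, -0.04, -0.15 and -0.06 at 100 nM, and none passed the adjusted p there. At 10 nM Gapdh was past it at -0.15 (edgeR adjusted p = 0.0414). The 95% intervals at 100 nM were -0.19 to 0.02 for Gapdh, -0.18 to 0.09 for Pgk1, -0.33 to 0.03 for Pgam1 and -0.17 to 0.04 for Pkm, so a 1.5-fold change of these genes lay outside each. Copies of these genes are common in the genome: 82.5% of the windows of Gapdh, 68% of Pgk1, 41.5% of Pgam1 and 34.4% of Pkm were found in other transcripts, and reads that fit several places were not counted.

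At the lactate step, Ldhb fell from 1 nM on and Ldha did not pass the test at any dose. Whether Ldha and Ldhb differ in their change was not tested. Both encode subunits of the tetrameric lactate dehydrogenase, and the Ldhb subunit is known to favour the conversion of lactate to pyruvate. At 0, 0.3, 1, 3, 10 and 100 nM, Ldhb stood at 24.1 and 22.1, 18.7 and 17.2, 12.6 and 12.3, 14 and 14.7, 12.8 and 11.4, and 11.9 and 14.2 RPKM. Both libraries of every dose were below both controls, and those from 1 nM on lay between 11.4 and 14.7 RPKM. The log2 fold change was -0.36 at 0.3 nM (adjusted p = 0.507), -0.89 ± 0.14 at 1 nM (edgeR adjusted p = 0.00058), -0.68 at 3 nM, -0.93 at 10 nM and -0.82 ± 0.14 at 100 nM (edgeR adjusted p = 8.51e-05), with overlapping 95% intervals at 1 and 100 nM (-1.18 to -0.60 and -1.11 to -0.53). A transcript of 1 other gene shares 27% of the windows of Ldhb.

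Ldha was at 278 and 280, 291 and 285, 288 and 302, 285 and 291, 299 and 272, and 281 and 287 RPKM over the same doses. Its log2 fold change at 100 nM was 0.03 (-0.09 to 0.14), and -0.06 with scaling factors from all genes with a count. Since Ldha made up 92.4% of the summed level at 0 nM, the lactate dehydrogenase sum was 302 and 302 RPKM there and 293 and 301 RPKM at 100 nM, while the share of Ldhb went from 7.99% and 7.31% to 4.07% and 4.71%.

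Of the monocarboxylate transporters, which carry lactate and pyruvate across the plasma membrane, Slc16a3 was called lower at 1, 10 and 100 nM and Slc16a1 at no dose, and whether they differ in their change was not tested. Slc16a3, which encodes the lactate exporter MCT4 (chr11:120948484-120959000, plus strand), was at 6.53 and 7.51, 4.04 and 5.11, 4.44 and 4.39, 5.04 and 6.07, 4.04 and 3.75, and 4.69 and 4.31 RPKM, and all treated libraries lay below both controls. The log2 fold change was -0.62 ± 0.18 at 0.3 nM (adjusted p = 0.287), -0.67 at 1 nM (edgeR adjusted p = 0.0472), -0.33 at 3 nM (adjusted p = 0.285), -0.85 at 10 nM (edgeR adjusted p = 0.00169) and -0.64 ± 0.18 at 100 nM (edgeR adjusted p = 0.00987). At 100 nM the adjusted p was 0.068 with DESeq2, 0.112 without replicate 2 of 0 nM and 0.0847 without replicate 2 of 100 nM.

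Slc16a1, which encodes MCT1, was at 54.1 and 57.5, 51 and 54, 57.5 and 54.9, 61.8 and 68.8, 61.8 and 68.9, and 57.3 and 60.5 RPKM. It was past the adjusted p at 3 and 10 nM (log2 fold change 0.23 at both, edgeR adjusted p = 0.0352 and 0.0203) and not at 100 nM (0.08, -0.06 to 0.22), where the value was 0.00 with scaling factors from all genes with a count.

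**Figure D4:**
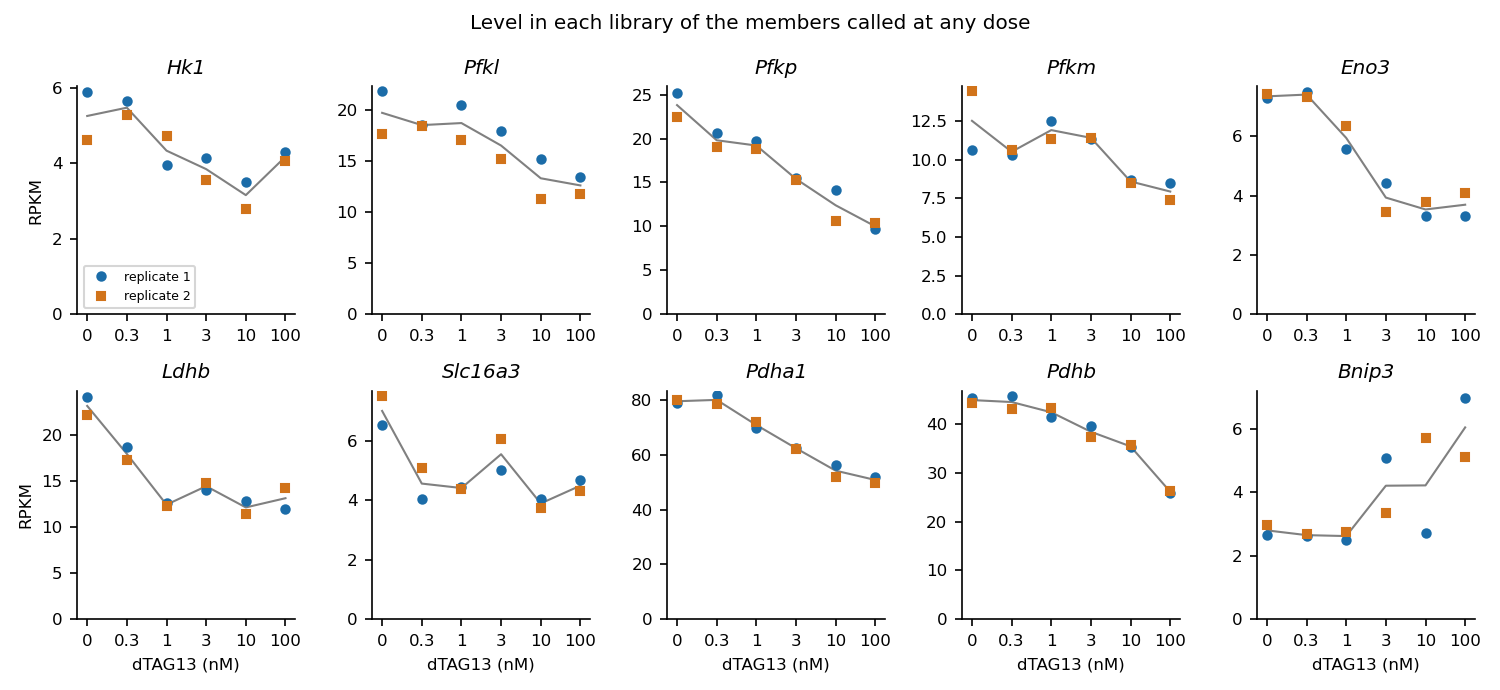
Level in RPKM (vertical, from 0) of the 10 members called against 0 nM at any dose, by dTAG13 dose in nM (horizontal), with a blue circle for replicate 1, an orange square for replicate 2 and a grey line through the means. Ldhb reaches its lower level by 1 nM, Eno3 by 3 nM, and Pdhb drops from 35.2 and 35.6 RPKM at 10 nM to 25.9 and 26.3 RPKM at 100 nM.

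At the entry of pyruvate into the mitochondrial pathway, both genes of the E1 enzyme of pyruvate dehydrogenase fell and Pdk1, which inactivates that enzyme by phosphorylation, rose. Pdha1, the E1 alpha subunit on the X chromosome, was at 79.1 and 80.3, 81.9 and 78.6, 69.9 and 72.2, 62.7 and 62.4, 56.5 and 52.0, and 52.1 and 49.7 RPKM at 0, 0.3, 1, 3, 10 and 100 nM. Libraries from 1 nM on were below both controls. Pdha1 had a log2 fold change of -0.17 at 1 nM (adjusted p = 0.231), -0.35 at 3 nM, -0.55 at 10 nM and -0.65 ± 0.066 at 100 nM (edgeR adjusted p = 3.93e-08).

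Pdhb, the E1 beta subunit, was at 45.4 and 44.3, 45.8 and 43.1, 41.5 and 43.3, 39.5 and 37.4, 35.2 and 35.6, and 25.9 and 26.3 RPKM over the same doses. From 1 nM on both libraries were below both controls, and those at 100 nM were below all others. Its log2 fold change was -0.22 at 3 nM (adjusted p = 0.137), -0.34 at 10 nM (edgeR adjusted p = 0.00885) and -0.78 ± 0.093 at 100 nM (edgeR adjusted p = 4.63e-07). Pdhb was past the adjusted p between 10 and 100 nM, at -0.44 ± 0.096 (edgeR adjusted p = 0.00989), whereas Pdha1 changed there by -0.09 (-0.23 to 0.05). The difference between the subunits over this interval was not tested. Other transcripts share 16.9% of the windows of Pdha1 and 30.3% of those of Pdhb.

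Pdk1, a known HIF-1 target, was at 15.9 and 17.4, 18.3 and 18.2, 18.9 and 19.7, 23.2 and 18.6, 25.7 and 22.1, and 26.7 and 22.8 RPKM from 0 to 100 nM. Every treated library was above both controls. Its log2 fold change was 0.33 at 3 nM (edgeR adjusted p = 0.0413), 0.52 at 10 nM and 0.57 ± 0.099 at 100 nM (edgeR adjusted p = 8.98e-05), a 1.49-fold rise just under the fold required for a call. With upper quartile scaling factors or library totals only, Pdk1 was called higher at 100 nM. Its change there was also over 1.5-fold without replicate 2 of 0 nM or replicate 2 of 100 nM. Over 15 alternatives the log2 fold change at 100 nM lay between 0.46 and 0.68. The ratio of Pdk1 to Pdha1 RPKM was 0.201 and 0.217 without dTAG13, while the 1 nM libraries had ratios of 0.270 and 0.274, the 10 nM libraries 0.455 and 0.424, and the 100 nM libraries 0.512 and 0.460. Pdk3, the most abundant kinase of the family here at 28.6 RPKM on average, had a log2 fold change of -0.01 (-0.25 to 0.23) at 100 nM, and Pdk2 ranged from 0.448 to 0.877 RPKM.

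Among the hypoxia response genes, Bnip3 rose and the oxygen sensing genes did not pass the test. Bnip3 encodes a mitochondrial receptor for mitophagy. It was at 2.64 and 2.97, 2.61 and 2.70, 2.49 and 2.75, 5.09 and 3.34, 2.73 and 5.71, and 6.98 and 5.12 RPKM at 0, 0.3, 1, 3, 10 and 100 nM. At 3 and 100 nM both libraries were above both controls, and at 10 nM 1 of 2 was. At 100 nM its log2 fold change was 1.10 ± 0.30 (edgeR adjusted p = 0.00904), from 27 and 32 counts to 74 and 55 counts. Without replicate 1 of 0 nM the adjusted p was 0.0714, without replicate 1 of 100 nM it was 0.137, and 62.4% of the windows of Bnip3 occur in transcripts of other genes, so this value is uncertain.

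Hif1a, the HIF-1 alpha subunit, ranged between 30.9 and 38.0 RPKM over the 12 libraries, with a log2 fold change of 0.05 (-0.10 to 0.20) at 100 nM. Egln1, the main prolyl hydroxylase, was at 8.43 and 7.02 RPKM at 0 nM and 9.21 and 8.63 RPKM at 100 nM (0.21, -0.05 to 0.47). Egln3, a hydroxylase that HIF-1 itself induces, was at 3.59 and 1.58 RPKM and then 1.24 and 1.16 RPKM, with a log2 fold change of -1.10 ± 0.42 that missed the threshold (edgeR adjusted p = 0.0632), though it was called lower with the likelihood ratio test, without the RPKM filter, in the fit of the 4 libraries and without replicate 2 of 0 nM. Vegfa, the vascular growth factor, ranged between 0.997 and 2.90 RPKM, and its value at 100 nM was -0.43 (-1.12 to 0.27).

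Steps between doses show where along the series the members moved. From 0.3 to 3 nM, Eno3 was called lower (1 of 32, 3.12%, against 1.2% of all genes; log2 fold change -0.92, edgeR adjusted p = 0.0179) and no member higher (0.747% of all genes). By the adjusted p alone 4 members were lower, Eno3, Pfkp, Aldoa and Pdha1 (2.88% of all genes), and 2 higher, Slc2a3 and Slc16a1 (2.43% of all genes). From 1 to 10 nM, Pfkp was called lower (-0.63 ± 0.11, edgeR adjusted p = 0.000279), where 1.73% of all genes were called lower and 0.809% higher. By the adjusted p alone 5 members were lower, Pfkp, Pfkl, Pfkm, Hk2 and Pdha1 (3.72% of all genes), and 0 higher (2.55% of all genes). At an unadjusted p under 0.05 there were 10 lower and 4 higher, with the share of all genes at that cut not counted.

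From 10 to 100 nM no member was called, where 0.193% of all genes were called higher and 0.791% lower. Pdhb alone was past the adjusted p, in the lower direction (1.76% of all genes lower and 0.615% higher). At an unadjusted p under 0.05 there were 3 members lower and 2 higher, again without a counted share of all genes. The steps from 1 to 10 nM and from 10 to 100 nM were chosen after the values had been seen.

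Related genes outside the list were counted at 100 nM, where 4.37% of all genes were called higher and 6.83% lower. Of 25 tested HIF target genes outside the list, 2 were called higher and 5 lower (median log2 fold change 0.01). P4ha1, a collagen prolyl hydroxylase, went from 3.65 ± 0.782 to 6.67 ± 1.38 RPKM (SD, n = 2), and Ndrg1, a stress-induced gene, from 0.959 ± 0.241 to 1.99 ± 0.546 RPKM. In the other direction, Cited2, a feedback inhibitor of HIF, had a log2 fold change of -1.19 ± 0.13 (edgeR adjusted p = 1.49e-07), and Ak4, a mitochondrial adenylate kinase, one of -1.04 ± 0.15. Pgm1 and Wsb1 were also called lower, at -0.81 and -0.61, and these and P4ha1 were named after their values had been seen, as were the genes below that are given without a call. Known HIF targets thus moved in both directions.

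None of 5 tested genes of HIF subunits and oxygen sensing was called. Epas1, the HIF-2 alpha subunit, was past the adjusted p at -0.49 ± 0.073 (edgeR adjusted p = 1.27e-05), from 26.0 to 18.5 RPKM. No gene of 12 tested other isoforms and regulators of glycolysis was called or passed the adjusted p. Among 6 other tested genes of pyruvate dehydrogenase, the phosphatase gene Pdp2, whose product reactivates the complex, was called lower (-0.71 ± 0.10, edgeR adjusted p = 6.15e-06; 17.2 to 10.5 RPKM). Dlat, Dld and Pdhx, the other subunits of the complex, had values of -0.19, 0.03 and -0.07.

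In the pentose phosphate pathway, which branches off at glucose 6-phosphate, 3 of 10 tested genes were called lower and 0 higher (median -0.24), against 6.83% and 4.37% of all genes. Pgd, which releases ribulose 5-phosphate and NADPH, went from 54.5 ± 0.373 to 31.3 ± 0.294 RPKM (log2 fold change -0.80, edgeR adjusted p = 1.59e-07). H6pd and Prps2 had log2 fold changes of -0.94 and -0.72. Of the 17 tested genes of the tricarboxylic acid cycle none was called, and by the adjusted p alone 4 were lower and 1 higher (median -0.20; 13.3% and 10.1% of all genes), Suclg1 and Idh2 at -0.34 each among the lower and Sdha at 0.20 the higher.

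With 2 libraries a condition, the edgeR p-values set each change against a spread between libraries that was estimated over all 6 conditions. RNA levels were measured, and neither enzyme activity nor lactate was.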

How the data were processed

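According to the labels, the submitters' processing notes and the methods, the authors extracted total RNA with Trizol, made libraries with the SMART-Seq Stranded kit, trimmed with Trim Galore, aligned to mm10 with HISAT2 and counted read pairs per gene with featureCounts. The deposited file holds raw counts per gene; per the file headers, pairs with both ends mapped were counted over exons with no strand or multi-mapping option set, so strand was ignored and multi-mapped pairs left out. Only genes averaging 1 RPKM or more across libraries entered the fit. Counts were scaled by TMM factors of these genes, which the RPKM values also use, and tested with the quasi-likelihood test of edgeR 4.0.16 (R 4.3.3) in 1 model over all 6 conditions, with Benjamini-Hochberg adjustment, a threshold of 0.05 and a minimum of 1.5-fold. DESeq2 1.42.0, the likelihood ratio test, other scalings, filters and left-out libraries were alternatives. Values per library are given for members called at any dose and their enzyme families, and from other lists for at most 4 called genes with the largest change, of which 1 is not reported here. The gene list and the other lists were chosen with earlier results of these data known. The fit was tested on simulated data. Promoters are RefSeq, GRCm38.p6. Shared windows of 50 bases were searched in GENCODE transcripts. The gene Rn45s took 10.5 to 19.4% of counts.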

Additional observations from a re-analysis of the deposited data

How the results depend on the processing

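The count of members called at 100 nM was within 1.5 times of 9 in every alternative run, at 8 to 13 over 12 other settings and 7 to 9 with a library left out, and at 0.3 nM it was 0 in all. At 1 nM, where 2 were called, it was 1 (Ldhb) with DESeq2, with library totals only, in the pairwise fit of the 4 libraries and with the replicate number as a block, and 1 to 1 with each library left out. At 3 nM, where 3 were called, it was 9 with no fold minimum and 1 to 3 with a library left out, the 1 (Ldhb) coming without replicate 1 of 0 nM. At 10 nM, where 5 were called, it was 15 with no fold minimum, 8 with TMM factors from all genes with a count (chosen after seeing the data) and 5 to 8 with a library left out, the 8 without replicate 1 of 10 nM. Between 0.3 and 3 nM, where 1 was called, it was 0 with DESeq2, 6 with no fold minimum and 0 to 1 with a library left out, 0 without either library of 0.3 nM or replicate 2 of 3 nM. The causes were not tested.

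The TMM factors from all genes with a count moved the median of all genes at 100 nM to -0.08 and gave 383 genes higher and 957 lower, against 497 and 777. Under the factors from all genes the log2 fold change of Ldha at 100 nM turned to -0.06 and that of Slc16a1 to 0.00. Egln3 was called lower at 100 nM there, with the likelihood ratio test, without the RPKM filter, in the pairwise fit and without replicate 2 of 0 nM. Over 18 named members and 15 alternatives each, 261 of 270 values kept direction and side of the adjusted p threshold, 7 lost significance (Bnip3, Slc16a3, Pfkm and Aldoa) and 2 turned. The 1.5-fold minimum was not part of this count, so a call could change where a value was kept, as for Pfkl and Pdk1.

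Over 15 pairs of conditions the correlation of the deviations of libraries with the same replicate number ran from -0.095 to 0.093. Noise at low counts pulls such correlations toward 0, so they cannot show whether these libraries were handled together. With the replicate block the counts of members called were 0, 1, 3, 5 and 9 from 0.3 to 100 nM. The fit of the 8 libraries of 0, 1, 10 and 100 nM, whose sample numbers form 1 run, called the same 5 members at 10 nM and the same 9 at 100 nM and gives no value at 0.3 or 3 nM. At levels under 2 RPKM the 95% intervals at 100 nM were wide, -0.27 to 1.31 for Pfkfb4 and -1.53 to 0.32 for Eno2, so changes of 1.5-fold in these genes were not detectable at this depth.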
